A study of Homo sapiens with 6 samples.

Results

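The genes described here are 8 members of the plasminogen activator system and the serpin family: PLAU, PLAT, PLAUR, SERPINE2, SERPINB2, SERPINB8, SERPINB5 and SERPINH1. They were chosen by name, as every non-control probe whose gene name in the array files is one of these symbols, which gave 11 probes of the 41000 on the array and 8 genes of 29123. PLAU, PLAT, PLAUR, SERPINE2 and SERPINH1 have 1 probe each, and SERPINB2, SERPINB8 and SERPINB5 have 2 each. The symbols were picked with earlier results of these data known.

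Plasminogen is an inactive protease that circulates in blood and is cut to plasmin, which degrades fibrin and other matrix proteins. The cut is made by the urokinase-type activator encoded by PLAU and the tissue-type activator encoded by PLAT, and the PLAUR receptor holds urokinase at the cell surface. Serpins act as one-use inhibitors: those encoded by SERPINE2 (protease nexin) and SERPINB2 (plasminogen activator inhibitor type 2) block activators, whereas SERPINH1 encodes a collagen chaperone of the endoplasmic reticulum that inhibits no protease. In ovarian carcinoma, as in other carcinomas, urokinase and its receptor are known for their part in invasion through matrix.

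The study asked how expression changes when Hic-5, a focal adhesion scaffold encoded by TGFB1I1, is suppressed in SKOV3 cells or expressed in A2780s cells, both established human ovarian cancer lines. In SKOV3, 4 arrays compared clones sh-S1 and sh-S2, labelled as shRNA knockdowns of Hic-5, with 1 Ctrl clone. Per the paper's methods the knockdown clones stably carried a pLKO.1-puro lentiviral shRNA against Hic-5 and were selected with puromycin. By the same methods Ctrl carried that vector with a scrambled sequence. In A2780s, 2 arrays compared 1 clone stably transfected with Hic-5 in the pCMV6 vector (pCMV-Hic-5) and selected with neomycin with 1 Ctrl clone holding the empty vector. Each array carried the RNA of a clone in one dye and that of Ctrl in the other, and the second array of each pair exchanged Cy3 and Cy5. Dye-swapped arrays of the same RNAs were counted as 1 replicate, so n is 2 clones in SKOV3, both against the same Ctrl, and 1 in A2780s. Each line had its own slide, and line and slide cannot be told apart.

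TGFB1I1 itself did not follow the labels in SKOV3. Its log2 ratio of clone over Ctrl was -0.16 and 0.12 on the arrays of the RNA labelled sh-S1 and -0.12 and 0.28 on those of the RNA labelled sh-S2, with a mean of 0.03 (limma, adjusted p = 0.855). On the pCMV-Hic-5 arrays it was 4.05 and 2.60. The single TGFB1I1 probe was therefore higher in the A2780s clone and not lower in the SKOV3 clones, and all directions given for SKOV3 rest on the labels. The paper reports inhibited Hic-5 expression in its SKOV3 knockdown clones by quantitative and semi-quantitative PCR and by Western blot. Why the array probe differs was not tested.

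Signal was uneven between dyes in SKOV3, where the median net intensity over spots ran from 373 to 530 in Cy3 and from 9.52 to 25.5 in Cy5. In A2780s it ran from 325 to 369 in Cy3 and from 441 to 568 in Cy5. Over the probes that passed the filter in each line, the ratios of dye-swapped arrays correlated at r = 0.61 for sh-S1, 0.606 for sh-S2 and 0.49 for pCMV-Hic-5. Between the SKOV3 clones in the same dye r was higher, at 0.892 in Cy5 and 0.895 in Cy3. Of 8 epithelial markers, KRT8, KRT18, KRT19, PAX8 and WT1 were well above background on every SKOV3 Ctrl array, and EPCAM, CDH1 and MUC16 on 2 of 4. KRT8, KRT18, KRT19 and PAX8 were lower in the SKOV3 clones (log2 ratios -2.14, -3.53, -2.55 and -3.58), alongside the members below, and their part in the member values was not tested. Of the same 8 markers, WT1 and MUC16 were tested and not called (-0.02 and 0.06). EPCAM and CDH1 were too dim to be tested and lay near 0 (-0.10 and -0.03). Of 8 markers of leukocytes, endothelium and fibroblasts, 4 were well above background on every SKOV3 Ctrl array and 1 on every clone array, none of those tested was called, and PECAM1 was well above background on 1 of 4 Ctrl arrays and in neither clone. In A2780s, 6 of 8 markers of either set were well above background on every Ctrl array and 6 on every pCMV-Hic-5 array. Signal above background thus did not separate the marker sets in that line.

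Sequences are given for PLAU, PLAUR and SERPINE2, the members that passed both the adjusted p and the fold limit described below. The first 30 of the 60 bases of their probes, 5' to 3' on the transcribed strand as the files hold them, are given to show what was hybridized. By the files' hg19 coordinates the PLAU probe lies at chr10:75677050-75677109 on the plus strand, the PLAUR probe at chr19:44169498-44169557 on the minus strand and the SERPINE2 probe at chr2:224840597-224842295 on the minus strand. The SERPINE2 interval is longer than its 60 bases, so that probe crosses a splice junction and lies in exons. Exon and UTR positions of the other probes were not analysed here.
PLAU probe: ctgtgaccagcactgtctcagtttcacttt
PLAUR probe: acaggaccctgagctatcggactggcttga
SERPINE2 probe: accttttctgtttttcatccgacataatcc

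The 250 bases before the annotated starts of the same genes are shown because these genes were lower together in SKOV3. They are RefSeq sequence of GRCh38.p14, and where RefSeq lists a pair of starts both windows are given. PLAU has windows at chr10:73910360-73910609 and chr10:73910882-73911131 on the plus strand, PLAUR has chr19:43670170-43670419 on the minus strand, and SERPINE2 has chr2:224031479-224031728 and chr2:224038641-224038890 on the minus strand. Capitals mark matches on either strand to the AP-1 motif, spelled TGANTCA. They also mark the SP1 motif, spelled GGGCGG, and no matches of the motifs overlapped in these windows.
PLAU upstream start: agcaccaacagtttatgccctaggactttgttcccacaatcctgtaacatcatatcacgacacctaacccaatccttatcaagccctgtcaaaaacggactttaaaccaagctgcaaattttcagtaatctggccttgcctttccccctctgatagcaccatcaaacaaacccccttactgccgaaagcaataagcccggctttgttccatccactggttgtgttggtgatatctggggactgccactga
PLAU downstream start: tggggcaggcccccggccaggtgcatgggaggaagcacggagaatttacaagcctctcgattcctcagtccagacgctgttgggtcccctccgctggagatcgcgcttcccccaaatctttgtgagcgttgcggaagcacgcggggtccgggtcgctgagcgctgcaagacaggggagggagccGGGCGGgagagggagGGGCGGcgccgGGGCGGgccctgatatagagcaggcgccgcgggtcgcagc
PLAUR: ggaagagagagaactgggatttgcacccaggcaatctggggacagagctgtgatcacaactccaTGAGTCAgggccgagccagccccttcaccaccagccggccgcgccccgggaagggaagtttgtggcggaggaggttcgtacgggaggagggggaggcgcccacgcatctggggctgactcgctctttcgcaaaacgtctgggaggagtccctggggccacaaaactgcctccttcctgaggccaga
SERPINE2 downstream start: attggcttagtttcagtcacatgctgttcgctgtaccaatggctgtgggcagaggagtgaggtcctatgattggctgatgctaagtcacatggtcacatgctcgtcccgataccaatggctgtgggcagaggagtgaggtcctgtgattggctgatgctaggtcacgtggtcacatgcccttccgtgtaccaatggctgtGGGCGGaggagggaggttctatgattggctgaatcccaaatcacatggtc
SERPINE2 upstream start: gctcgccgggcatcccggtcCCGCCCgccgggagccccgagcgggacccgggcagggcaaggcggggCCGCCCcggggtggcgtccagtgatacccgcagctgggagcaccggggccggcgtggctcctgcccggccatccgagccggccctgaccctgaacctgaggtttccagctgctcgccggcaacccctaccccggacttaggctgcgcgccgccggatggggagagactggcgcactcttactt

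The PLAUR window held 1 AP-1 match, which begins 186 bases before the start, and no SP1 match. The downstream PLAU window held 3 SP1 matches, which begin 66, 51 and 40 bases before the start, and the upstream window held none. The SERPINE2 windows held 1 and 2 SP1 matches. Over all 35116 RefSeq windows of this length, 6.57% held the AP-1 motif and 42.6% the SP1 motif. Neither motif was found in all 3 genes, and PLAU and SERPINE2 both held the SP1 motif. Members that were not called held them too, the SP1 motif in SERPINB5 and SERPINH1 and the AP-1 motif in SERPINB2, SERPINB8 and SERPINB5. PLAT, also not called, was not searched for motifs.

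In SKOV3, 3 members were lower in the clones with an adjusted p up to 0.05 and a 2-fold or larger change: PLAU, SERPINE2 and PLAUR. The test compares the 2 clones with a single Ctrl and leaves out the spread of that Ctrl. None was higher by that rule, and SERPINB2 differed by less than the spread between clones. Of all 24958 probes tested, 4.16% were lower and 2.98% higher by the same rule. Because the members were chosen with earlier results of these data known, setting them beside that share is not a test. By adjusted p alone, PLAT and SERPINB8 were also lower and SERPINH1 was higher, which makes 5 lower and 1 higher of the 7 members with a tested probe. By that looser rule 16.2% of all probes were lower and 15.6% higher. The median log2 ratio over all tested probes was 0.00. SERPINB5 was too dim to be tested.

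**Figure D1:**
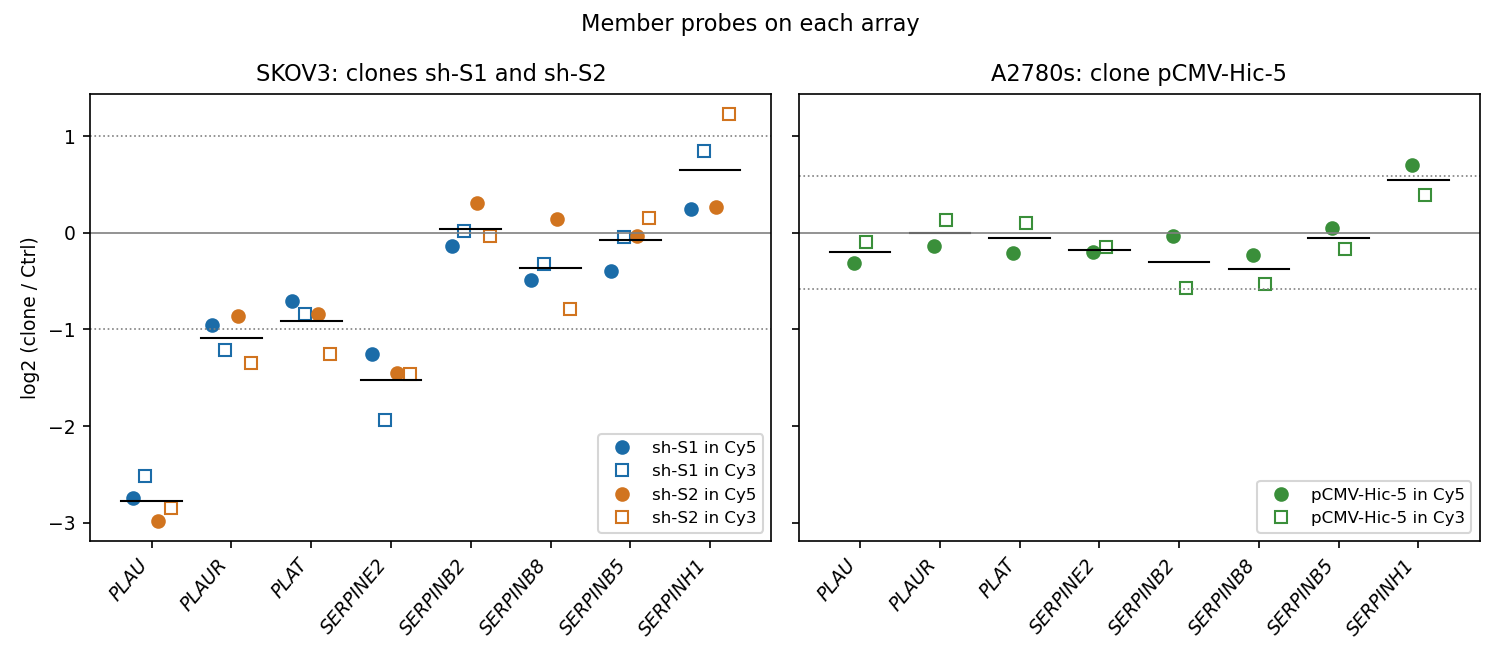
Log2 ratio of clone over Ctrl of each member's brightest probe on every array, SKOV3 at left and A2780s at right, with filled circles for clones in Cy5, open squares for clones in Cy3, black lines for means and dotted lines at 2-fold (left) and 1.5-fold (right). PLAU lies between -2.98 and -2.52 on all 4 SKOV3 arrays, and its A2780s values are -0.31 and -0.09.

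PLAU, the urokinase gene, had the largest change among the members. Its log2 ratio was -2.75 and -2.52 with sh-S1 in Cy5 and in Cy3, and -2.98 and -2.85 with sh-S2. All 4 arrays were lower, and the clone means of -2.63 and -2.91 lay close together. The mean was -2.77 (SD 0.20, SE 0.11, n = 2), a 6.84-fold difference (limma, adjusted p = 9.85e-06). Here and below, SD is that of the 2 clone means. SE is limma's moderated standard error, which also draws on the spread of all tested probes, so it does not follow from SD and n. The array carries 10 copies of this probe, of which 8 to 10 per SKOV3 array were usable, and their SD was between 0.11 and 0.17 on 3 arrays and 0.50 on that of sh-S2 in Cy3. Without any normalization, the net intensity of PLAU in Cy3 was 24726 and 22336 in Ctrl against 2151 in sh-S1 and 2281 in sh-S2. In Cy5 it was 818 and 1149 in Ctrl against 50.9 and 63.9. Both dyes thus placed Ctrl far above the clones, 10.6-fold in Cy3 and 17.1-fold in Cy5, although these unscaled intensities also carry the brightness of each array.

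SERPINE2, whose product inhibits urokinase, tissue-type activator and thrombin, followed PLAU in size at this setting, whereas PLAT and PLAUR exceeded it with no normexp offset and by the log ratios of the scanner software. Its log2 ratio was -1.25 and -1.93 on the sh-S1 arrays and -1.45 and -1.46 on the sh-S2 arrays. The mean was -1.52 (SD 0.10, SE 0.10, n = 2), or 2.88-fold (limma, adjusted p = 7.36e-05). Every array was more than 2-fold lower. Net Cy3 intensity was 10285 and 11322 in Ctrl against 1968 in sh-S1 and 2377 in sh-S2.

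PLAUR, the urokinase receptor, was lower on all 4 arrays. Its log2 ratio was -0.95 and -1.21 with sh-S1 and -0.86 and -1.35 with sh-S2. The mean of -1.09 (SD 0.02, SE 0.09, n = 2) is a 2.13-fold difference that lies just past the 2-fold limit (limma, adjusted p = 0.000252). The ratio was larger on the arrays with the clone in Cy3 than on those with it in Cy5, and the Cy5 arrays alone gave 1.87-fold, short of the limit. With no normexp offset the difference was 3.67-fold, and by the log ratios of the scanner software 4.83-fold. Net Cy3 intensity was 2429 and 2319 in Ctrl against 378 in sh-S1 and 546 in sh-S2, a mean difference of 5.14-fold. The sh-S1 RNA was not well above background in Cy5.

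PLAT, the tissue-type activator gene, was lower on all 4 arrays, with log2 ratios of -0.71 and -0.84 for sh-S1 and -0.84 and -1.25 for sh-S2. The mean of -0.91 (SD 0.19, SE 0.11, n = 2), or 1.88-fold, passed the adjusted p (limma, 0.00104) and missed the fold limit. In Cy5 the clones were not well above background on either array, so PLAT was read in them on 1 array of each clone. PLAT entered the test by its signal in Ctrl alone, where it was higher. Its size depended on the processing more than that of any other member: 2.83-fold with median centring, 4.31-fold with no offset and 7.31-fold by the scanner software's log ratios, all past the fold limit, and 2.06-fold from sh-S2 alone. Net Cy3 intensity was 1606 and 1401 in Ctrl against 129 and 207 in the clones. The usable copies of the probe, 7 to 10 per array, had an SD of 0.65 on the array of sh-S2 in Cy3, against 0.10 to 0.21 on the other SKOV3 arrays. The probe lies at chr8:42032812-42032871 of hg19 on the minus strand.

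SERPINB8, SERPINB2 and SERPINB5 belong to the intracellular clade B of serpins. Their probes lie on chromosome 18 of hg19, from 61160248 for SERPINB5 to 61654596 for SERPINB8, so these genes are neighbours. SERPINB8, an inhibitor of furin-like proteases, had log2 ratios of -0.49 and -0.32 for sh-S1 and 0.15 and -0.79 for sh-S2. It was lower on 3 of 4 arrays, and its mean of -0.36 (SE 0.09, n = 2) or 1.29-fold passed the adjusted p alone (limma, 0.0263). It no longer passed with no normexp offset (limma, adjusted p = 0.0893), by the scanner software's log ratios (0.153) or on the Cy5 arrays alone (0.383). Its second probe had no value on 1 sh-S1 array and was not tested.

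SERPINB2, which encodes an inhibitor of urokinase, did not differ by its brightest probe beyond the spread between clones. Its log2 ratio was -0.14 and 0.02 for sh-S1 and 0.31 and -0.03 for sh-S2, with a mean of 0.04 (SE 0.10, n = 2, limma, adjusted p = 0.822). Its other probe was not well above background in any RNA on any array. SERPINB5, known as maspin, was well above background on 2 of 4 Ctrl arrays by either probe, and the log2 ratios of its brightest probe were -0.39 and -0.04 for sh-S1 and -0.03 and 0.16 for sh-S2. These values fell on both sides of 0 and were not tested.

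SERPINH1, the collagen chaperone gene, was higher on all 4 arrays. Its log2 ratio was 0.25 and 0.85 for sh-S1 and 0.26 and 1.23 for sh-S2, and the larger value of each clone came with the clone in Cy3. The mean of 0.65 (SD 0.14, SE 0.10, n = 2), or 1.57-fold, passed the adjusted p (limma, 0.00329) and missed the fold limit. The Cy5 arrays alone gave 1.20-fold (limma, adjusted p = 0.1). With no offset it was 2.33-fold and by the scanner software's log ratios 2.52-fold, both past the limit. Net Cy3 intensity was 787 and 758 in Ctrl against 1419 and 1492 in the clones. The probe is placed at chr11:75279842-75280010 of hg19 on the plus strand, an interval longer than 60 bases, so it crosses a splice junction.

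**Figure D2:**
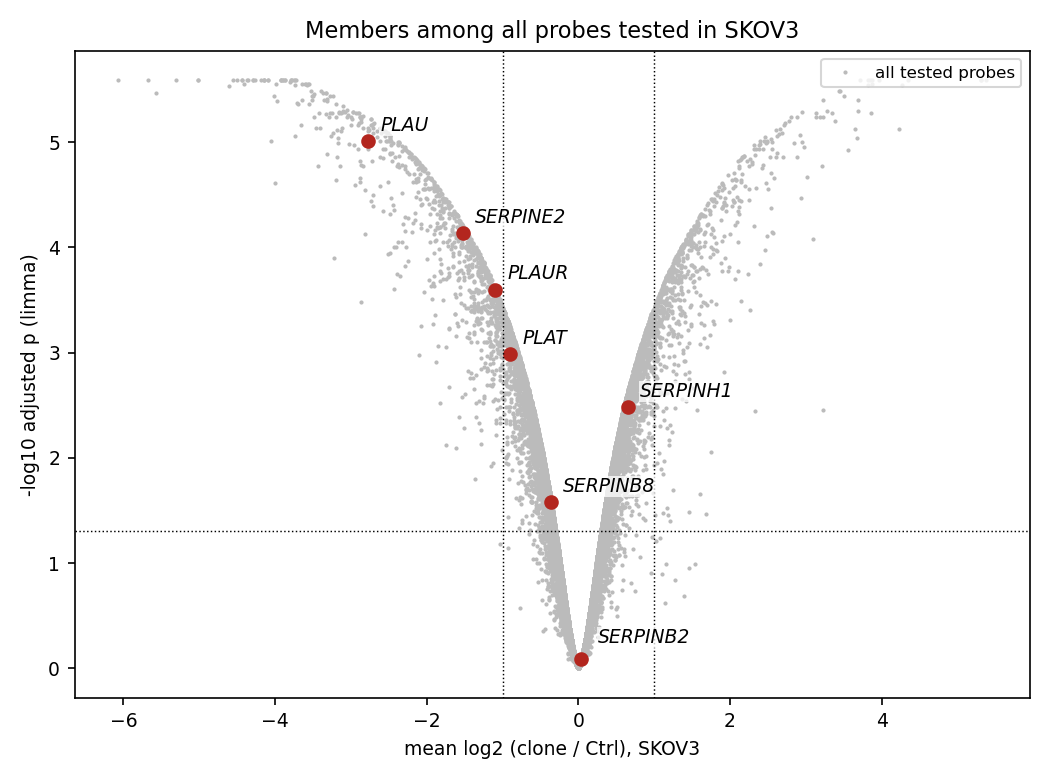
Mean log2 ratio in SKOV3 (horizontal) against -log10 of limma's adjusted p (vertical) for all 24958 probes tested (grey) and the 7 tested members (red), with dotted lines at 2-fold and at an adjusted p of 0.05. PLAU, SERPINE2 and PLAUR lie past both limits on the left, PLAT and SERPINH1 between the fold lines above the p line.

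Across the 10 alternatives in the plot of settings, the mean log2 ratio of PLAU ran from -3.11 to -2.63 and that of SERPINE2 from -1.79 to -1.35, both past the fold limit each time. PLAUR stayed lower in the 9 alternatives that gave it a value and PLAT likewise, while a filter that required signal in both dyes on every array left both untested.

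**Figure D3:**
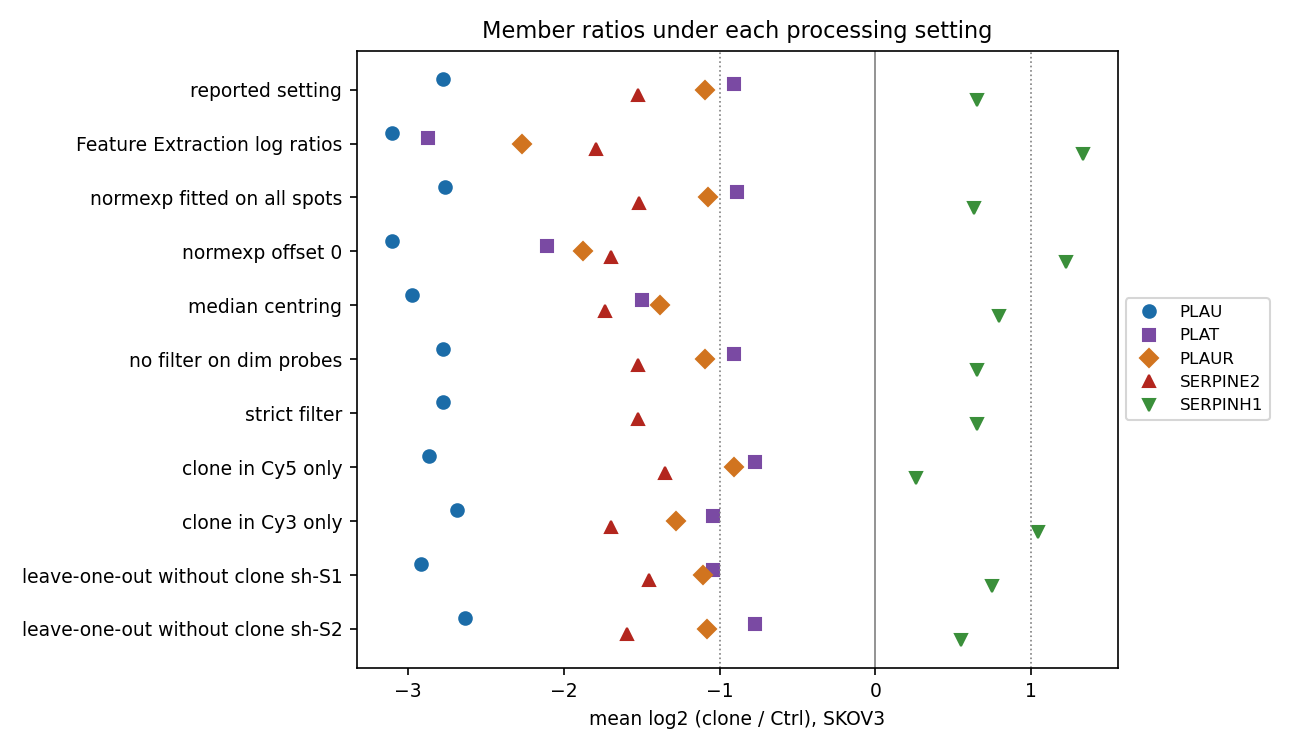
Mean log2 ratio of clone over Ctrl in SKOV3 for PLAU, PLAT, PLAUR, SERPINE2 and SERPINH1 (symbols) under the reported setting and 10 alternatives (rows), with dotted lines at 2-fold. PLAU stays between -3.11 and -2.63, whereas PLAT moves from -0.91 to -2.87 with the scanner software's log ratios.

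In A2780s no member reached a mean of 1.5-fold with the same direction on both arrays, in either direction, while 3.26% of the 30531 probes in the rule were higher and 1.32% lower. There is no test with 1 clone. PLAU had log2 ratios of -0.31 and -0.09 with pCMV-Hic-5 in Cy5 and in Cy3, a mean of -0.20. SERPINE2 had -0.20 and -0.15. PLAUR had -0.13 and 0.14 and PLAT -0.21 and 0.10, so both changed sign with the dye. SERPINB8 had -0.23 and -0.53 and SERPINB2 -0.04 and -0.57.

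SERPINH1 came nearest to the limit in A2780s, with log2 ratios of 0.70 and 0.39 and a mean of 0.54 or 1.46-fold. It was higher on all 6 arrays of both lines, whereas PLAU and SERPINE2 were lower on all 6. These arrays are dye-swapped pairs, and none of these genes was called in A2780s at the reported setting. The share of all probes with the same direction on all 6 was not counted. SERPINH1 was just past 1.5-fold with median centring (1.52-fold) and on the Cy5 array alone (1.63-fold). SERPINB5 had 0.05 and -0.17 for its brightest probe. Whether any member responded differently in the lines was not tested.

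Channel levels, on the log2 scale after normalization within and between arrays, placed the same members apart in the Ctrl RNAs. For PLAU the 4 readings of SKOV3 Ctrl ran from 12.7 to 13.3, those of the SKOV3 clones from 9.86 to 10.5, and the readings of A2780s Ctrl were 9.57 and 9.64. The clones lay nearer to A2780s than to their own Ctrl, although the lines were on different slides. The 4 SKOV3 Ctrl readings are of a single RNA, and the share of all probes that separate in this way was not counted. For SERPINE2 the levels were 11.4 to 12.3 in SKOV3 Ctrl, 9.93 to 10.8 in the clones and 8.57 to 9.13 in A2780s Ctrl. PLAUR ran from 9.15 to 9.94 in SKOV3 Ctrl and from 7.94 to 9.08 in the clones, and was 7.76 and 7.81 in A2780s Ctrl.

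SERPINH1 had the reverse order. Its level was 8.20 to 8.81 in SKOV3 Ctrl, 8.67 to 9.66 in the clones, 9.58 to 9.87 in A2780s Ctrl and 10.26 to 10.28 in pCMV-Hic-5. SKOV3 Ctrl and clones overlapped on this scale, and the dyes differed in level. For PLAT the dyes lay so far apart that the clones, from 6.89 to 8.67, overlapped with Ctrl, from 7.73 to 9.38. SERPINB8 was 10.8 to 11.2 in SKOV3 Ctrl and 10.1 to 11.3 in the clones, again overlapping, and 9.43 to 9.65 in A2780s Ctrl. SERPINB2 did not separate the lines, at 8.58 to 8.92 in SKOV3 Ctrl and 8.57 to 9.18 in A2780s Ctrl. Levels of a probe are compared only with those of the same probe.

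**Figure D4:**
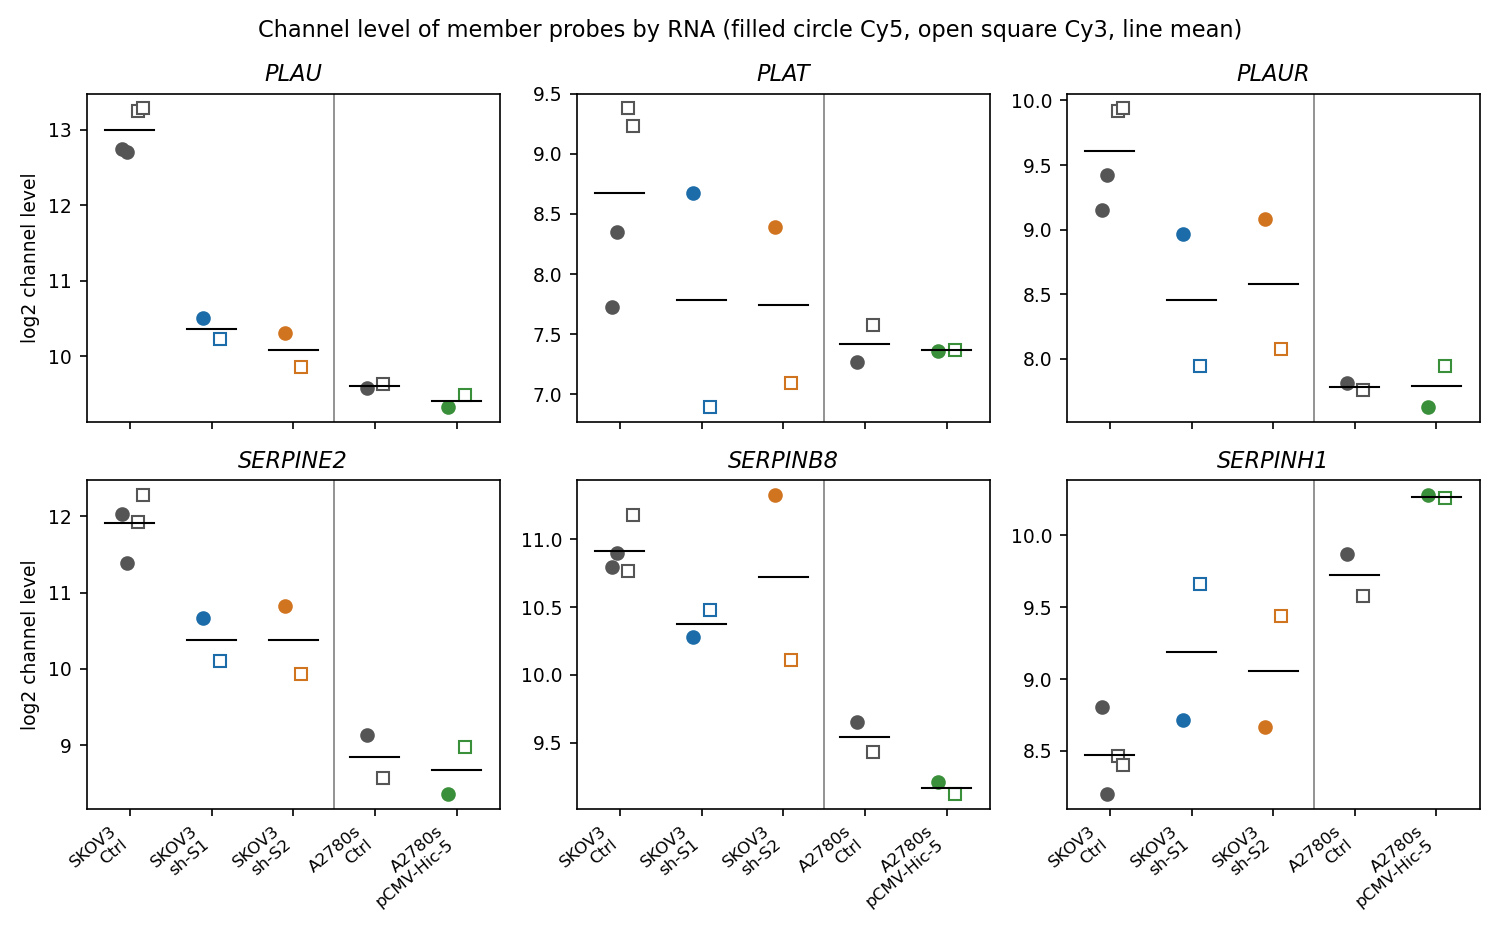
Log2 channel level of 6 member probes (panels, each with its own vertical axis) in the 5 RNAs, with filled circles for Cy5, open squares for Cy3, lines for means and a grey line between the cell lines. PLAU in the SKOV3 clones, from 9.86 to 10.5, lies below all 4 SKOV3 Ctrl readings, while for PLAT and SERPINB8 clone and Ctrl readings overlap.

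Of 64 other genes of the system and the serpin family, 34 had a brightest probe that was tested in SKOV3. By the same rule 9 of them were lower and 2 higher, beside 4.16% lower and 2.98% higher over all tested probes. That share counts every tested probe, whereas each listed gene is counted by its brightest. These lists too were chosen with earlier results of these data known, so the comparison is not a test. The median log2 ratio over the 34 was -0.12. F2R and SORL1, counted as lower, entered the test by their signal in Ctrl alone, where they were higher. A filter that required signal in both dyes on every array gave 7 lower and 2 higher. Proteases, inhibitors and clotting factors that act with the system had 4 lower and 1 higher of 10 tested, with a median of -0.51. Receptors and surface proteins that bind plasminogen, its activators or PLAUR had 4 lower and none higher of 13, with a median of -0.38. Other serpins had 1 lower and 1 higher of 11, with a median of -0.05.

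Among proteases, inhibitors and clotting factors, TFPI2, an inhibitor of plasmin and of clotting factors, was lowest. Its log2 ratio was -3.08 and -5.25 for sh-S1 and -2.98 and -4.60 for sh-S2, with a mean of -3.98 or 15.8-fold (limma, adjusted p = 4.09e-06). Its other probe was dimmer and also called lower, at -1.15 or 2.22-fold. That dimmer probe entered the test by its signal in Ctrl alone, where it was higher. F3, the tissue factor that starts clotting, fell by 2.78 on the log2 scale, THBD (thrombomodulin) fell by 2.25 and F2R, a thrombin receptor, fell by 1.06. F12, whose protease product starts the contact pathway, rose by 1.66. PLG, plasminogen itself, has 5 probes, and the brightest had a mean of -0.01 (limma, adjusted p = 0.945).

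Among receptors, S100A10, the annexin partner that binds plasminogen and tissue-type activator at the cell surface, was 17.1-fold lower (mean log2 ratio -4.09, SE 0.09, n = 2, limma, adjusted p = 2.58e-06). KRT8, also described as a plasminogen binding protein, fell by 2.14 on the log2 scale, ITGA3, an integrin chain reported to bind PLAUR, fell by 1.50 and SORL1, an endocytic receptor, fell by 1.20. The other KRT8 probes gave -1.54, called lower, and -0.38, not called. The brightest ITGB1 probe had no value on 1 SKOV3 array, and its other probes were both lower, at -1.59 and -1.85. The brightest ANXA2 probe lacked values on 3 SKOV3 arrays. Of the other tested probes of ANXA2, the annexin that binds S100A10, one was called lower at -2.33 (limma, adjusted p = 1.09e-05) and one was not called at -0.54. Among other serpins SERPINB1, an inhibitor of neutrophil proteases, fell by 1.88 and SERPINF1, which encodes the secreted factor PEDF, rose by 2.26. A dimmer SERPINB1 probe was also called lower, at -1.14.

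**Figure D5:**
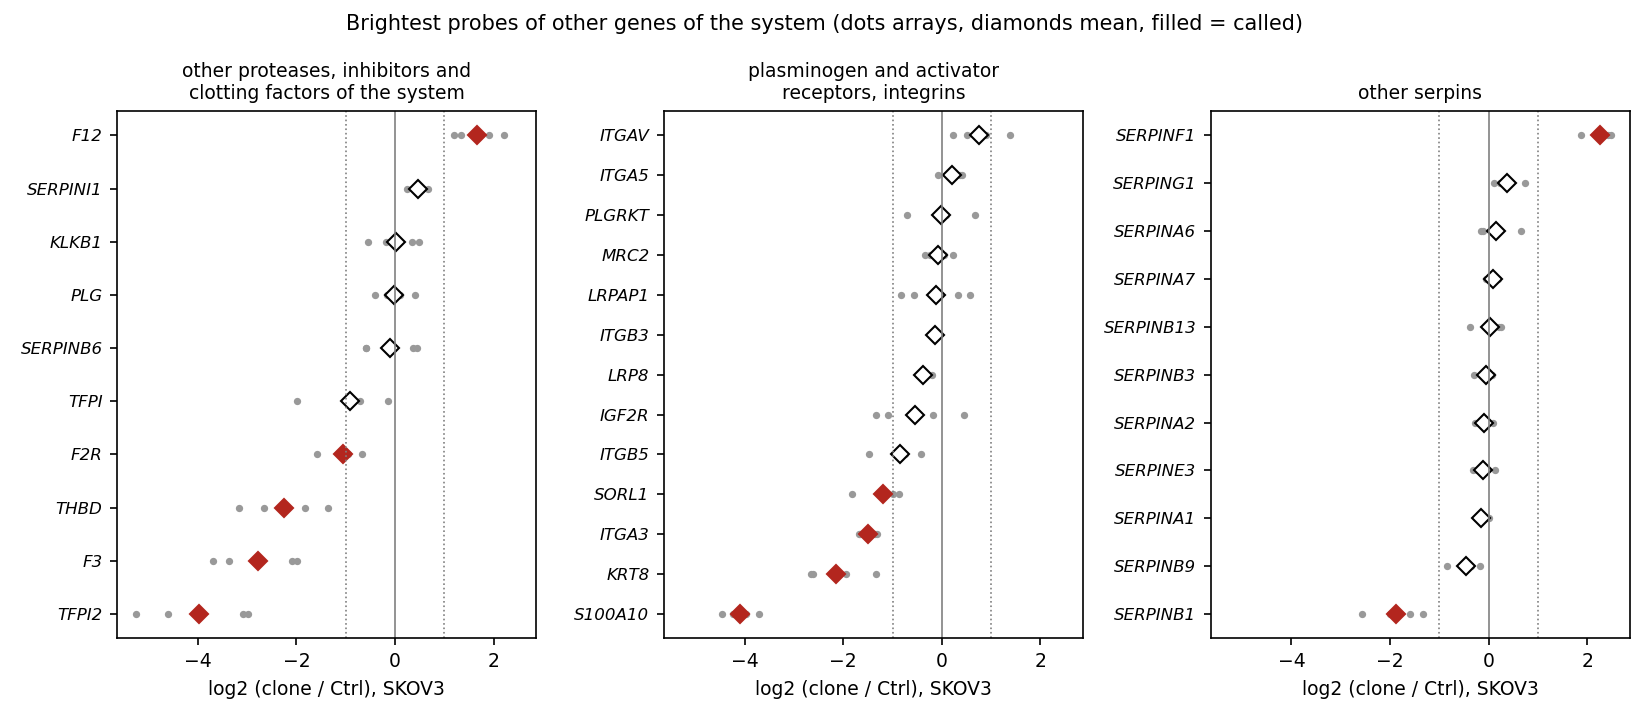
Log2 ratio of clone over Ctrl in SKOV3 of the brightest probe of each tested gene outside the members, in 3 panels by role, with grey dots for the 4 arrays, diamonds for the mean (red where lower or higher by adjusted p and 2-fold) and dotted lines at 2-fold. TFPI2 and S100A10, at -3.98 and -4.09, lie farthest to the left, and F12 and SERPINF1, at 1.66 and 2.26, to the right.

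In A2780s 2 of these genes were higher and 2 lower among the 45 with a probe in the rule, beside 3.26% and 1.32% over all probes in it. VLDLR, a receptor that clears complexes of activators and serpins, had log2 ratios of 1.23 and 1.26, and SERPINF1 had 0.78 and 0.80. SERPINF1 was thus higher on all 6 arrays, and the share of all probes with that pattern was not counted. ITGB1 had -0.97 and -0.39 and SERPINI1, the neuroserpin gene, had -0.92 and -0.37, so both met the 1.5-fold limit by their mean and not on the second array. The other ITGB1 probes had means of -0.45 and -0.53 and were not called. TFPI2 had -1.03 and -0.0031, S100A10 had a value on 1 array, and F3 was not well above background.

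The genes whose 6 array ratios were most like those of PLAU, by the root mean square difference over 13085 candidates outside the lists above, were TNFRSF12A (0.234), BASP1 (0.239), SPATS2L (0.281), CLMP (0.284) and S100A16 (0.296). TNFRSF12A, the receptor of TWEAK, had a mean log2 ratio of -2.70 in SKOV3 and -0.08 in A2780s. The other 4 ran from -2.97 to -2.84 in SKOV3. This likeness is a description over 4 arrays with a shared Ctrl and 2 of another line.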

How the data were processed

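Scanner files of 6 arrays were used. The authors deposited the mean intensity and local background of each spot as Agilent Feature Extraction wrote them, unnormalized, and log10 ratios of Cy5 over Cy3 from the software's own processed signals. The deposited series values equal those log10 ratios within 0.00499. The processing notes give Feature Extraction 8.5.1.1 and the file header 10.7.3.1.

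Background of the mean intensity was removed by normexp, offset 50 (limma 3.58.1 in R 4.3.3), leaving out spots with a local background over 1000, and ratios were normalized by loess within arrays. Of 45015 spots per array, 1639 control spots and 121 to 362 flagged spots were left out. Spots of a probe were averaged, ratios were turned to clone over Ctrl as log2 values, and dye-swapped arrays were averaged. In SKOV3 the values of the 2 clones entered lmFit and eBayes as an intercept, with Benjamini-Hochberg adjustment over all tested probes; the spread of the Ctrl, a single RNA, is left out, and a fold limit of 2 was set. Nothing in the sources says that clones were cultured more than once. In A2780s the fold limit was 1.5 with the same direction on both arrays. Probes entered when well above background in Ctrl on all arrays of the line, or in a clone on both its arrays, with a value on every array. An offset shrinks the ratios of dim probes. Channel levels were scaled by Aquantile. A gene is represented by its brightest probe. Arrays give no read depth, and their number limits the precision.

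Named are all members, TGFB1I1, PLG, every other listed gene called in either line and the 5 genes most like PLAU; markers and ANXA2 were named after their values were seen. 1 gene of the fixed lists was left out of every count and value. The members and lists were chosen with earlier results of these data known. The promoter motifs were chosen in the same way. Alternatives changed the ratio source (the software's log ratios), the normexp fit and offset, the normalization, the filter, the dye orientation, the clones and the call limits.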

Additional observations from a re-analysis of the deposited data

How the results depend on the processing

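The SKOV3 calls of PLAU and SERPINE2 kept their direction and stayed past the fold limit under all 10 alternatives, and past the adjusted p in the 8 that allow a test. Leaving out a clone gave PLAU -2.91 to -2.63, SERPINE2 -1.59 to -1.46 and PLAUR -1.11 to -1.08, and 3 to 4 members lower, 0 higher either way, with 7 to 11 other genes lower and 2 to 3 higher. The clone-in-Cy5 arrays alone put PLAUR at -0.91, under the fold limit. SERPINH1 became a higher call, 1 in place of 0, with the Feature Extraction log ratios, with offset 0 and on the clone-in-Cy3 arrays. Feature Extraction log ratios also gave 4 other genes higher in SKOV3. Adjusted p alone gave 5 members lower and 1 higher, and 14 other genes lower and 5 higher.

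In A2780s, where no test exists, 1 member was higher (SERPINH1) with median centring and on the Cy5 array alone. The count of other genes lower, 2 in the reported setting, was 4 with the Feature Extraction log ratios, 1 with normexp fitted on all spots, 6 on the Cy5 array, 0 on the Cy3 array, 0 past 1.5-fold on each array, 0 past 2-fold and 1 where all probes of a gene had to be called, and 1 other gene was higher past 2-fold. PLAUR, at 0.00, turned to -0.059 with the Feature Extraction log ratios, -0.038 with normexp fitted on all spots, -0.0047 with offset 0 and -0.13 on the Cy5 array, and PLAT to 0.10 on the Cy3 array. In SKOV3, SERPINB2 turned to -0.0044 on the clone-in-Cy3 arrays and was -0.058 without sh-S2 and 0.14 without sh-S1. The causes were not tested. Without the filter on dim probes the SKOV3 test of SERPINB5 gave -0.08 (limma, adjusted p = 0.713). Each ratio paired a clone with Ctrl on the same array. No pairing by replicate number was used, because those numbers mark the dye of the clone on arrays of the same RNAs. Signal over background limits PLAT and SERPINB5 most.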
